A study of Mus musculus with 6 samples.

Results

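Gene expression in megakaryocyte progenitors of mice that received CTC41-EVs was compared with that in progenitors of mice that received PBS, the vehicle. The comparison rests on 2 of the 6 arrays of the series, 1 a side, chosen by their titles. The third progenitor array, from mice that received CTC41.5G-EVs, is shown beside them, and the 3 platelet arrays carry the same treatments in blood platelets. EVs usually stands for extracellular vesicles. The labels do not say what CTC41 and CTC41.5G stand for, nor the strain and age of the mice, the dose, route and time of treatment or the number of mice in a pool. Cells of all mice in a group were pooled before RNA isolation, and pools were used as they were or first cleared of leukocytes and erythrocytes with magnetic beads. The labels do not say which pools were cleared. No group had a second array, so no difference below carries a standard error or a p-value, and higher and lower are statements about these arrays alone.

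Megakaryocyte progenitors are marrow cells committed to the lineage that makes platelets. Under thrombopoietin they enlarge, replicate their DNA without dividing, fill with granules and membrane, and extend proplatelets into the sinusoids. Extracellular vesicles are membrane particles that cells release and other cells can bind or take up, with proteins, messenger RNAs and microRNAs as cargo. The platelet receives most of its RNA and its ribosomes from the megakaryocyte, which makes the progenitor the place where its transcripts are first set.

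Genes were tested, in the sense of being counted, where the log2 signal averaged over the 3 progenitor arrays was at least 5.07, a floor set at the 75th percentile over probes. Of 10858 such genes, 336 (3.09%) were at least 1.5-fold higher with CTC41-EVs and 11 (0.101%) at least 1.5-fold lower. After quantile normalization of the 6 arrays the counts were 198 and 46, and after quantile normalization of the 3 progenitor arrays 170 and 32. Among 7094 protein-coding genes 59 (0.832%) were higher and 2 (0.0282%) lower. The same count between the 2 EV arrays gave 66 genes (0.608%) higher and 85 (0.783%) lower with CTC41.5G-EVs, and CTC41.5G-EVs against PBS, which uses the same PBS array, gave 594 (5.47%) and 81 (0.746%). The SD of the difference over genes was 0.212 for CTC41-EVs minus PBS and 0.206 for CTC41.5G-EVs minus CTC41-EVs, and 90% of genes lay within 0.365 and 0.348 of 0. The spread between PBS and CTC41-EVs was thus only slightly wider than that between the 2 EV arrays. The median over all genes tested was 0.04, and 6803 genes (62.7%) had a positive difference.

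The 336 higher genes fell into few classes. They comprised 188 pseudogenes, 59 protein-coding genes, 57 small nucleolar RNA (snoRNA) genes, 14 small nuclear RNA genes, 6 long noncoding RNA genes, 3 microRNA genes and 9 genes without a type in RefSeq. Ribosomal protein genes and their named pseudogenes made up 76 of them, genes on the Y chromosome 19, and snoRNA genes between Snrpn and Ube3a 52. Outside these ribosomal lists and the Y genes, 34 protein-coding genes remained. They included Rpl31-ps12, a ribosomal protein copy by name that is typed as protein-coding. Members of such families are near copies of each other that the probes may not tell apart, and the 336 genes held 286 distinct sets of values.

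MicroRNAs are short RNAs that bind messenger RNAs through a seed, bases 2 to 8, and were of interest here because vesicles carry them. Array probes for a microRNA gene can detect the precursor as well as the mature strand. The gene furthest from PBS in either direction was Mir378c, which stood at 6.64 with PBS, 5.00 with CTC41-EVs and 6.17 with CTC41.5G-EVs. Its measured difference was -1.64 (3.12-fold lower with CTC41-EVs) and lay between -1.90 and -1.62 under the 5 other scalings. The CTC41-EVs value lay under the floor of 5.07, so the size of this difference depends on background. In platelets Mir378c stood at 5.83, 2.63 and 4.17 in the same order of treatments. Its mean in platelets was under the floor, so no order is read from those values. Of 219 microRNA genes tested, 96 were higher and 123 lower by sign, with a median of -0.04. The sequences below, from RefSeq on GRCm38.p6, are the mature forms of miR-378c and of its family members in the table, then those listed for Mir325, Mir138-2, Mir703 and Mir3098, which also passed 1.5-fold, with the seed in capitals.
mmu-miR-378c: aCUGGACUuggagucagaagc
mmu-miR-378b: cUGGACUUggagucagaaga
mmu-miR-378d: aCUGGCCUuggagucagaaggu
mmu-miR-325-3p: uUUAUUGAgcaccuccuaucaa
mmu-miR-325-5p: cCUAGUAGgugcucaguaagugu
mmu-miR-138-5p: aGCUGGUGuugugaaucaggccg
mmu-miR-138-2-3p: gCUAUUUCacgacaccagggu
mmu-miR-703: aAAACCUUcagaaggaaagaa
mmu-miR-3098-5p: uCCUAACAgcaggaguaggagc
mmu-miR-3098-3p: uUCUGCUGccugccuuuagga

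The mature strand of miR-378c lies at chr14:46954905-46954925 on the minus strand. Its seed, CUGGACU, was not the seed of any other sequence shown. Mir378b stood at 6.83, 6.54 and 6.61, a difference of -0.29, and Mir378d, under the floor, at 5.21, 4.76 and 5.08. Neither reached 1.5-fold. Mir378a differed by -0.19, and its mature sequence was missing from the reference used. Its seed was therefore not compared with that of miR-378c.

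Mir325 stood at 7.36 with PBS, 8.11 with CTC41-EVs and 7.80 with CTC41.5G-EVs, Mir138-2 at 4.64, 5.37 and 5.49, and Mir703 at 8.76, 9.41 and 9.09. These 3 genes were the only microRNA genes at least 1.5-fold higher among the 219 tested, and the PBS value of Mir138-2 lay under the floor. They made up 1.37% of the microRNA genes, less than the 3.09% higher among all genes. On the lower side 3 microRNA genes (1.37%) passed 1.5-fold, against 0.101% of all genes. Mir3098 (7.46, 6.85 and 7.70) and Mir466d (8.89, 8.23 and 9.04) joined Mir378c on the lower side, and on both the CTC41.5G-EVs array lay above PBS. With the mean of a gene's probes in place of the brightest probe, Mir325 differed by 0.32 and Mir466d by -0.14.

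The protein-coding genes furthest above PBS were led by Y chromosome copies and by the machinery of translation. Rpl35, a protein of the large ribosomal subunit, stood at 6.23 with PBS, 7.14 with CTC41-EVs and 7.68 with CTC41.5G-EVs, 1.88-fold higher with CTC41-EVs. Pabpc1, which binds the poly(A) tail of messenger RNAs and promotes their translation, stood at 5.30, 6.19 and 6.43 (1.85-fold). Hnrnpa3, an RNA-binding protein of messenger RNA processing, stood at 6.43, 7.28 and 7.21 (1.81-fold). The CTC41.5G-EVs comparison shares the PBS array on which these genes were chosen, so its values are no second support. Serinc3, a membrane protein that restricts retroviral infectivity, stood at 6.18, 7.01 and 7.12. Rpl8, another large subunit protein, stood at 6.87, 7.68 and 7.77. Lrrc32, which encodes GARP, the surface receptor that holds latent TGF-beta on platelets and regulatory T cells, stood at 4.81, 5.62 and 5.63, so its PBS value lay under the floor. The difference of Lrrc32 was 0.81 and lay between 0.78 and 0.84 under the 5 other scalings.

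**Figure D1:**
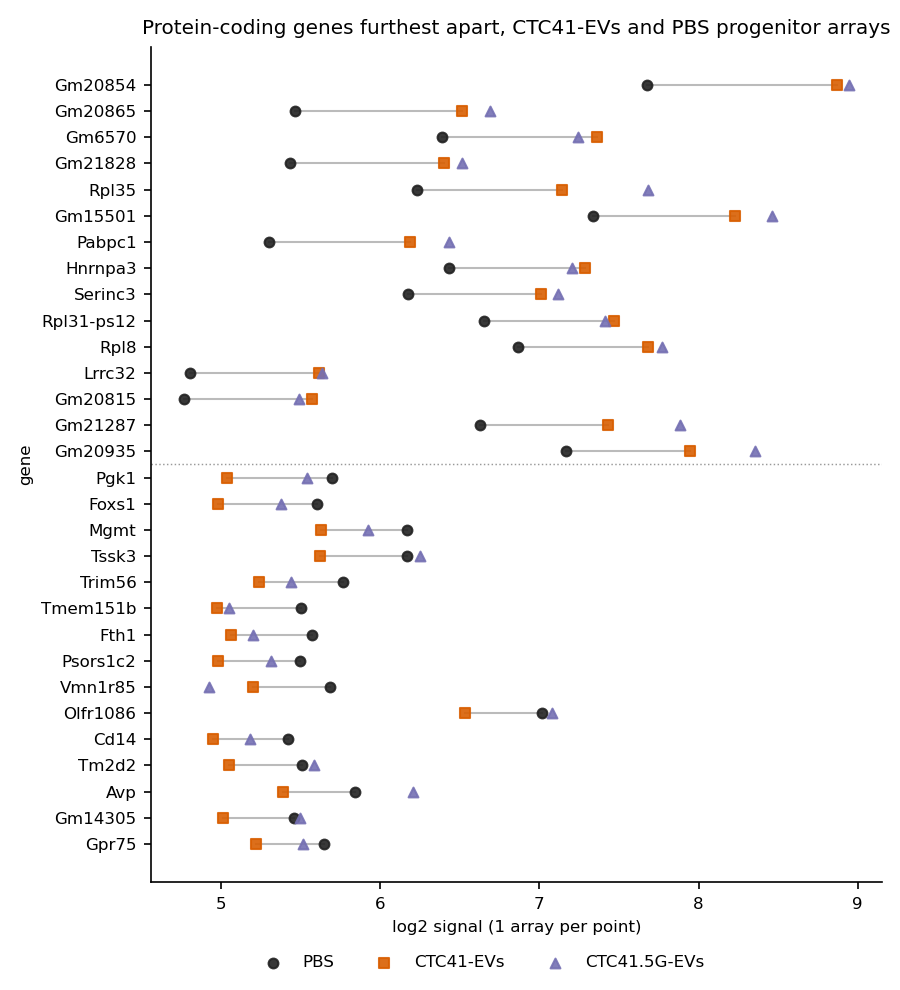
The horizontal axis gives the log2 signal of each of 30 protein-coding genes, 15 furthest above and 15 furthest below PBS, on the PBS (circles), CTC41-EVs (squares) and CTC41.5G-EVs (triangles) progenitor arrays, 1 array per point, with a grey line from PBS to CTC41-EVs. Higher genes such as Rpl35 have both EV arrays to the right of PBS, while for several lower genes, such as Pgk1 at 5.70, 5.04 and 5.54, the CTC41.5G-EVs array lies nearer to PBS.

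On the lower side 2 protein-coding genes passed 1.5-fold. Pgk1, the glycolytic phosphoglycerate kinase, stood at 5.70 with PBS, 5.04 with CTC41-EVs and 5.54 with CTC41.5G-EVs, and Foxs1, a forkhead transcription factor, at 5.60, 4.98 and 5.38. Both CTC41-EVs values lay just under the floor of 5.07, and with the mean of its probes Pgk1 differed by -0.35. The next genes missed 1.5-fold. Mgmt, which repairs alkylated guanine in DNA, stood at 6.17, 5.63 and 5.92, and Trim56, a ubiquitin ligase of antiviral signalling, at 5.76, 5.24 and 5.44. Fth1, the heavy chain of the iron store ferritin, stood at 5.57, 5.06 and 5.20, and Cd14, the monocyte co-receptor for lipopolysaccharide, at 5.42, 4.95 and 5.18, both again under the floor with CTC41-EVs. The remaining 9 of the 15 lowest differed by -0.55 to -0.43 and included 2 chemosensory receptor genes, Vmn1r85 and Olfr1086. Near the 1.5-fold limit of 0.585 on the log2 scale, Mrgpra2b (0.586) and Csprs (0.586) lay just inside and Ms4a3 (0.581), Rpl41 (0.581) and Rps7 (0.579) just outside.

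Cytosolic ribosomal protein genes, whose products build the 40S and 60S subunits, stood above PBS as a list. Of 32 tested, 29 were higher and 3 lower by sign. At least 1.5-fold higher were 8, against 3.09% of all genes and 0.832% of protein-coding genes. Their median was 0.35 against 0.04, and lay between 0.25 and 0.40 over the deposited and other scalings. Beside Rpl35 and Rpl8 the 8 comprised Rpl4 (6.39, 7.16 and 7.37 with PBS, CTC41-EVs and CTC41.5G-EVs), Rps26 (6.02, 6.78 and 6.97), Rps4x (5.73, 6.49 and 6.65), Rpl27, Rps3a1 and Rpl12. Both subunits were represented. The list was not uniform, since Rps28 (-0.08), Rpl11 (-0.07) and Rpl22 (-0.06) lay slightly below PBS and Rps18 and Rps24 within 0.05 of it. With the mean of its probes Rps26 differed by 0.49.

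The messenger RNAs of many ribosomal proteins begin with a run of pyrimidines that couples their translation to growth signals, and short pyrimidine words at the annotated start were therefore counted. The 30 bases around each RefSeq start, 15 on either side on the gene's strand alone, were searched for the word CTTTC, the word CTTTT and the word TCTTT. These words can overlap each other, and a window with at least 1 of them was counted. A word was found in 9 of 28 ribosomal protein genes with a listed start (32.1%), in 5.61% of 5755 protein-coding genes tested and in 8.05% of all 27025 promoters. It was in 0 of 8 translation factor genes. The window of Eef1a1, counted among these, holds an unbroken run of pyrimidines that contains none of the words. The count therefore does not show that translation factor genes lack a pyrimidine run. The 9 ribosomal protein genes with a word had a median difference of 0.57 and the 19 without 0.26. Over all protein-coding genes tested the medians with and without a word were 0.04 and 0.03, and for proteasome genes, 2 with a word and 13 without, they were -0.02 and 0.11. Annotated starts can lie some bases from the start used, so a window without a word says only that these letters are not there. The windows of 3 of the higher ribosomal genes with a word and 1 without are shown 5′ to 3′, with the matches in capitals. They lie at chr2:39005117-39005146 (Rpl35, minus strand), chr9:64173372-64173401 (Rpl4, plus strand), chr10:128626492-128626521 (Rps26, minus strand) and chrX:102189377-102189406 (Rps4x, minus strand) on GRCm38.p6.
Rpl35: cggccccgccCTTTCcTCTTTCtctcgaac
Rpl4: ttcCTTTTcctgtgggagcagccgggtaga
Rps26: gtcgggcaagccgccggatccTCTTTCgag
Rps4x: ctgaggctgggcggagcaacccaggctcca

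Processed pseudogenes of ribosomal proteins showed the same pattern in larger numbers. These copies carry much of the parent's sequence, so their probes may read the parent's transcript. Of 158 tested, 146 were higher and 12 lower by sign, 68 were at least 1.5-fold higher against 10.3% of all pseudogenes and 3.09% of all genes, and the median was 0.54. Rps6-ps4, for instance, stood at 7.10 with PBS, 8.15 with CTC41-EVs and 8.03 with CTC41.5G-EVs, and Rpl30-ps2 and Rpl31-ps8 were 2.08-fold and 2.05-fold higher. Both lists were taken up after their values had been seen in the earlier account of the series or in these files, and neither count is independent evidence.

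**Figure D2:**
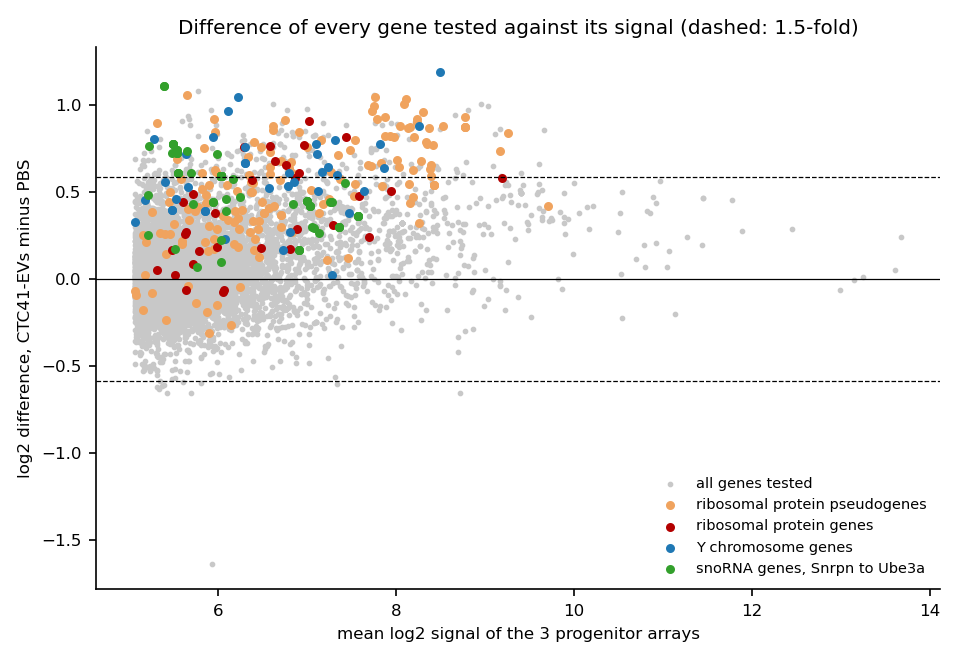
Each point is 1 of 10858 genes, with the mean log2 signal of the 3 progenitor arrays on the horizontal axis and the log2 difference between CTC41-EVs and PBS on the vertical axis, dashed lines at 1.5-fold. Ribosomal protein genes, their pseudogenes, Y chromosome genes and snoRNA genes between Snrpn and Ube3a lie mostly above 0, and the single point near -1.64 is Mir378c.

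The size of the difference went with the signal. Among genes with a mean signal under 6 the median was 0.03, from 6 to 7 it was 0.09, from 7 to 8 it was 0.28, from 8 to 9 it was 0.32, and at 9 or more it was 0.38. Between the 2 EV arrays the medians of the same bands lay from 0.06 to 0.13. Ribosomal protein genes lay above other protein-coding genes of the same band, at 0.17 against 0.02 under 6 (12 genes), 0.58 against 0.07 from 6 to 7 (13 genes) and 0.49 against 0.21 from 7 to 8 (6 genes). When the running median of like signal was subtracted, an alternative chosen after seeing the data, 181 genes were at least 1.5-fold higher and 26 lower. The part of signal level in the differences of bright genes was not tested further.

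**Figure D3:**
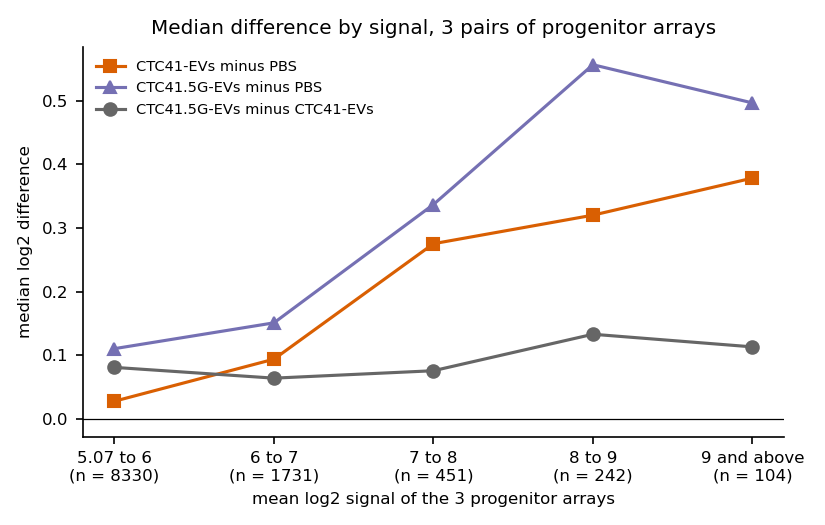
The vertical axis gives the median log2 difference of genes grouped by their mean log2 signal (horizontal axis), for CTC41-EVs minus PBS (squares), CTC41.5G-EVs minus PBS (triangles) and CTC41.5G-EVs minus CTC41-EVs (circles), with the number of genes under each band. Both lines against the shared PBS array are higher in the bright bands than in the dim ones, from 0.03 to 0.38 for CTC41-EVs and with a dip in the brightest band for CTC41.5G-EVs, while the line between the 2 EV arrays stays between 0.06 and 0.13.

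Other genes of protein synthesis followed in smaller steps. All 14 translation factors tested were higher by sign, with a median of 0.17. At least 1.5-fold higher were 2, against 3.09% of all genes and 0.832% of protein-coding genes. Eef1a1, which delivers aminoacyl-tRNA to the ribosome, stood at 8.18 with PBS, 8.80 with CTC41-EVs and 9.09 with CTC41.5G-EVs, and after quantile normalization of the 6 arrays it differed by 0.35. Eef2, which drives translocation, was at 7.56 with CTC41-EVs, 0.56 above PBS, and at 7.70 with CTC41.5G-EVs, and Eif3h, a subunit of the initiation factor eIF3, stood at 5.27, 5.75 and 5.99. Among 17 splicing factors 13 were higher and 4 lower, with a median of 0.19. Hnrnpa3 was the 1 past 1.5-fold, against 0.832% of protein-coding genes. Nuclear genes of oxidative phosphorylation had 20 of 26 higher and a median of 0.15, against 62.7% and 0.04 for all genes. Over the deposited and other scalings the oxidative phosphorylation median lay between 0.07 and 0.15. Proteasome genes had 15 of 20 higher (median 0.09) and genes of the unfolded protein response 10 of 11 (median 0.12). None of the oxidative phosphorylation, proteasome and unfolded protein response lists had a member past 1.5-fold, against 3.09% of all genes. The share among protein-coding genes was 0.832%. Proteasome genes lay about as near to PBS as the megakaryocyte surface and granule genes below (median 0.10). Mitochondrial ribosomal protein genes had a median of 0.06, near that of all genes.

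Genes on the Y chromosome were all above PBS. Of 38 tested, 38 were higher by sign, 19 at least 1.5-fold against 3.09% of all genes, with a median of 0.58, while the medians of the other chromosomes lay between 0.02 and 0.07. Genes past 1.5-fold were not confined to Y. The X chromosome had 38 of 398 genes at least 1.5-fold higher (9.55%) and chromosome 7 had 67 of 1127 (5.94%). Gm20854 stood at 7.67 with PBS, 8.87 with CTC41-EVs and 8.94 with CTC41.5G-EVs, 2.29-fold higher, and Gm20865 at 5.47, 6.51 and 6.69. These are predicted members of multicopy families of the Y long arm, and their values cannot be taken as those of separate genes. Single-copy Y genes were close to PBS. Kdm5d differed by 0.03, Uty by 0.08, Eif2s3y by 0.10 and Sry by 0.02, and Kdm5d, Uty and Eif2s3y lay under the floor. Xist, the RNA that coats the inactive X, stood at 5.08, 4.60 and 4.24, also under the floor on average. The labels do not give the sex of the mice, and its part in these values was not tested.

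The snoRNA genes between Snrpn and Ube3a lie in an imprinted region as tandem repeats processed from the introns of 1 long transcript, and guide RNA modification or remain orphans. All 89 tested were higher by sign, 52 at least 1.5-fold against 3.09% of all genes, with a median of 0.59, but the 89 genes held 35 distinct sets of values, whose median was 0.45. Gm23305, which had the same values as 1 other gene, stood at 4.75 with PBS, 5.86 with CTC41-EVs and 5.57 with CTC41.5G-EVs, with PBS under the floor. With CTC41.5G-EVs the median of the cluster was 0.22 above the same PBS array. Ube3a, the neighbouring ubiquitin ligase gene, lay far under the floor at 2.83, 2.79 and 2.78. Named snoRNA genes elsewhere had 11 of 20 higher and a median of 0.07. Snord42a (0.71) and Snord13 (0.61) passed 1.5-fold, against 3.09% of all genes and 15% of all snoRNA genes. Spliceosomal, 7SK, 7SL and 5S RNA genes had 52 of 77 lower and a median of -0.16, but the 77 held 43 distinct sets of values, whose median was -0.03. Rnu2-10, a U2 RNA gene among them, stood at 6.73, 7.47 and 6.84.

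Immediate early genes are switched on within minutes of growth factor, cytokine or handling stimuli. Of 18 tested, 17 were higher by sign against 62.7% of all genes, with a median of 0.24. At least 1.5-fold higher were 2, against 3.09% of all genes and 0.832% of protein-coding genes. Dusp1, a phosphatase that ends MAP kinase signalling, stood at 7.07 with PBS, 7.82 with CTC41-EVs and 8.28 with CTC41.5G-EVs. Fosb, a subunit of the AP-1 transcription factor, stood at 7.22, 7.87 and 8.25, and its partner Jun at 5.24, 5.72 and 5.91. On these 3 genes CTC41-EVs lay between PBS and CTC41.5G-EVs. After quantile normalization of the 6 arrays Dusp1 differed by 0.54 and Fosb by 0.39, both under 1.5-fold. Egr3 was highest with CTC41-EVs at 5.37, 5.73 and 5.38, and Klf2 was the 1 member below PBS (5.39, 5.25 and 5.38). The labels do not give the time from death to lysis, and its part in these values was not tested. Txnip, a thioredoxin-binding regulator of glucose uptake, stood at 6.24, 6.94 and 7.32, and Fas, a death receptor and p53 target, at 7.70, 8.22 and 8.72.

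Genes of the megakaryocyte itself were close to PBS. Of 15 surface and granule genes 11 were higher and 4 lower by sign, and the median was 0.10. At least 1.5-fold higher were 0, against 3.09% of all genes and 0.832% of protein-coding genes, and 0 were lower by as much. F2r, a thrombin receptor, stood at 5.10 with PBS, 5.54 with CTC41-EVs and 5.40 with CTC41.5G-EVs, Pf4, platelet factor 4, at 6.24, 6.57 and 6.50, and Gp6, the collagen receptor, at 5.52, 5.84 and 5.66. Itga2b, the integrin alpha-IIb of the fibrinogen receptor, stood at 6.50, 6.45 and 6.58, and Gp9 of the von Willebrand factor receptor at 6.33, 6.15 and 6.18. Ppbp, a granule chemokine precursor, stood at 5.25, 5.36 and 5.87, the highest value being with CTC41.5G-EVs. The median of 11 megakaryocyte transcription factors was 0.02 and took either sign under the other scalings. Among them Etv6, an ETS repressor, stood at 5.49, 6.05 and 6.32. Genes of cytokine and JAK-STAT signalling had 9 of 11 higher and a median of 0.11, led by Socs1, a feedback inhibitor, at 5.22, 5.43 and 5.54. Proplatelet cytoskeleton genes had 18 of 21 higher, with a median of 0.10. None passed 1.5-fold, against 3.09% of all genes and 0.832% of protein-coding genes.

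The labelled cell type was checked against its markers. The 7 megakaryocyte markers measured had mean levels of 5.37 to 6.51, all above the floor. The 9 neutrophil markers were also all above the floor, at 5.87 to 8.76. So were the basophil and mast cell markers (5.29 to 7.89) and the eosinophil markers (5.32 to 5.67). Passing the floor therefore does not establish the labelled type. The megakaryocyte markers were brighter in platelets, for instance Pf4 at 6.44 in progenitors and 12.7 in platelets. In bulk arrays a smaller share of cells of a type and less RNA per cell cannot be told apart.

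The log2 of the sum was 8.78 with PBS, 8.86 with CTC41-EVs and 8.96 with CTC41.5G-EVs for megakaryocyte markers and 10.7, 10.9 and 10.9 for neutrophil markers. Basophil and mast cell markers had the widest range, at 8.29, 8.79 and 8.54, and eosinophil markers stood at 6.30, 6.58 and 6.64. Monocyte markers stood at 8.09, 7.96 and 8.05, B lineage markers at 7.52, 7.40 and 7.49, and erythroid markers at 7.37, 7.34 and 7.37. The part of these cells in the differences above was not tested.

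Granulocyte genes were described by stage. Of 10 genes listed for neutrophil primary granules, made early in the lineage, 9 were higher by sign against 62.7% of all genes. At least 1.5-fold higher was 1, against 3.09% of all genes and 0.832% of protein-coding genes, and the median was 0.36. The list held Gfi1, also a stem and progenitor gene here. Calr (6.04 in progenitors, 6.18 in platelets), Srgn (6.43 and 9.26) and Nkg7 (7.40 and 7.39) were about as bright or brighter in platelets. The count and median are thus not those of neutrophil genes alone. Elane, neutrophil elastase, stood at 6.81 with PBS, 7.43 with CTC41-EVs and 7.25 with CTC41.5G-EVs, Mpo, myeloperoxidase, at 7.75, 8.22 and 8.41, and Ms4a3, a marker of granulocyte and monocyte progenitors, at 5.14, 5.72 and 5.34. After quantile normalization of the 6 arrays Elane differed by 0.44. Over the deposited and other scalings Mpo differed by 0.19 to 0.50. Of 14 late granule genes 7 were higher and 7 lower, with a median of -0.01, which took either sign under the other scalings. The alarmins S100a9 (7.24, 7.65 and 7.47) and S100a8 (7.08, 6.70 and 7.30), whose products form a dimer, parted on the CTC41-EVs array. Over the same scalings S100a9 differed by 0.19 to 0.44 and S100a8 by -0.53 to -0.36.

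Basophil, mast cell and eosinophil genes had 7 of 8 higher by sign against 62.7% of all genes, and a median of 0.34. None passed 1.5-fold, against 3.09% of all genes and 0.832% of protein-coding genes. The proteases Prss34 (7.62, 8.16 and 7.90), Cpa3 (4.92, 5.40 and 5.55) and Mcpt8 (6.42, 6.86 and 6.46) and the eosinophil granule protein Prg2 (5.34, 5.76 and 5.91) led them. The PBS value of Cpa3 lay under the floor, so the size of its difference depends on background. Kit (0.27) and Gata2 (0.16), also counted as higher here, were stem and progenitor markers as well. On Prss34 and Mcpt8 the CTC41-EVs array was the highest of 3. Over the deposited and other scalings Prss34 differed by 0.28 to 0.56. Monocyte and macrophage genes (median -0.02), B lineage genes (0.07), erythroid genes (0.01) and stem and progenitor genes (0.02) stayed near the median of all genes.

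**Figure D4:**
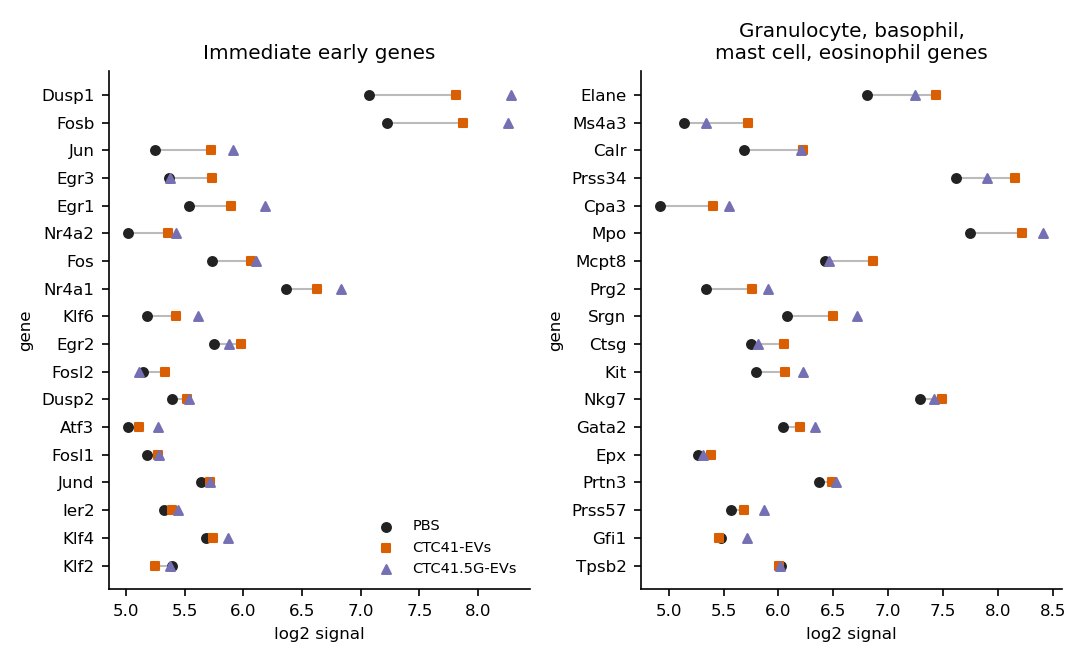
The horizontal axes give the log2 signal of immediate early genes (left) and of genes of neutrophil primary granules, basophils, mast cells and eosinophils (right) on the PBS (circles), CTC41-EVs (squares) and CTC41.5G-EVs (triangles) progenitor arrays, 1 array per point. Dusp1, at 7.07, 7.82 and 8.28, and Elane, at 6.81, 7.43 and 7.25, have the widest gap between PBS and CTC41-EVs in their panels.

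Most lists of inflammatory, clotting and vesicle genes lay near the median of all genes. Interferon response genes had 4 of 8 higher and a median of 0.00, toll-like receptor and inflammasome genes a median of 0.01, and inflammatory cytokine and NF-kB target genes 8 of 12 higher with a median of 0.08, led by Tnfaip3 (0.41), an inhibitor of NF-kB. TGF-beta and angiogenic factors had 5 of 12 higher and a median of -0.01. Lrrc32 was the 1 member past 1.5-fold, against 3.09% of all genes and 0.832% of protein-coding genes. Coagulation and fibrinolysis genes had a median of 0.00, with Thbd, the thrombin receptor thrombomodulin, at -0.42. Vesicle biogenesis and uptake genes had 14 of 19 higher and a median of 0.03. Glycolysis genes had 12 of 16 higher and a median of 0.06. Pgk1 was their 1 member past 1.5-fold below PBS, against 0.101% of all genes and 0.0282% of protein-coding genes. Antioxidant and iron genes had 7 of 9 higher and a median of 0.15. None passed 1.5-fold, against the same shares of all and of protein-coding genes. Sod1, superoxide dismutase, differed by 0.56, Gpx1, a glutathione peroxidase, by 0.46 and Fth1 by -0.51.

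The platelets of CTC41-EVs and PBS mice, which share no array with the progenitors, gave the other direction for the translation genes. The labels do not say whether blood and marrow came from the same mice. In platelets 37 of 8247 genes tested (0.449%) were at least 1.5-fold higher with CTC41-EVs and 193 (2.34%) lower, 3206 (38.9%) had a positive difference, and the median was -0.06. Ribosomal protein genes had a median of 0.35 in progenitors and -0.27 in platelets, where 31 of 35 were lower by sign, and translation factors 0.17 and -0.25. Rpl8 differed by -0.63 in platelets, Hnrnpa3 by -0.73, Rpl35 by -0.35 and Pabpc1 by -0.21. The CTC41.5G-EVs platelet array was not low in the same way. In platelets Rpl8 stood at 8.73 with PBS, 8.11 with CTC41-EVs and 8.76 with CTC41.5G-EVs, and Pabpc1 at 9.46, 9.25 and 9.60. Rpl35 (8.76, 8.41 and 8.69) and Hnrnpa3 (7.85, 7.11 and 7.39) lay between PBS and CTC41-EVs on that array. The difference between the cell types was not tested, since each rests on 1 array a side.

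Over 6473 genes tested in both cell types the 2 sets of differences correlated at -0.326 (Pearson) and -0.272 (Spearman), a description across genes, which are not independent replicates and include the near copies above. For 4181 protein-coding genes Pearson's r was -0.242. Of 245 genes at least 1.5-fold higher in progenitors and tested in platelets, 215 (87.8%) were lower in platelets by sign, against 57.2% of all genes tested in both. The 47 genes higher past 1.5-fold in progenitors and lower past 1.5-fold in platelets made up 14.0% of the 336, of which 245 were tested in platelets, and 24.4% of the 193, beside 2.34% of all genes lower in platelets and 3.09% higher in progenitors. Ctla2a, a cathepsin inhibitor-like gene, ran against this, with differences of 0.69 in progenitors and 0.79 in platelets.

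**Figure D5:**
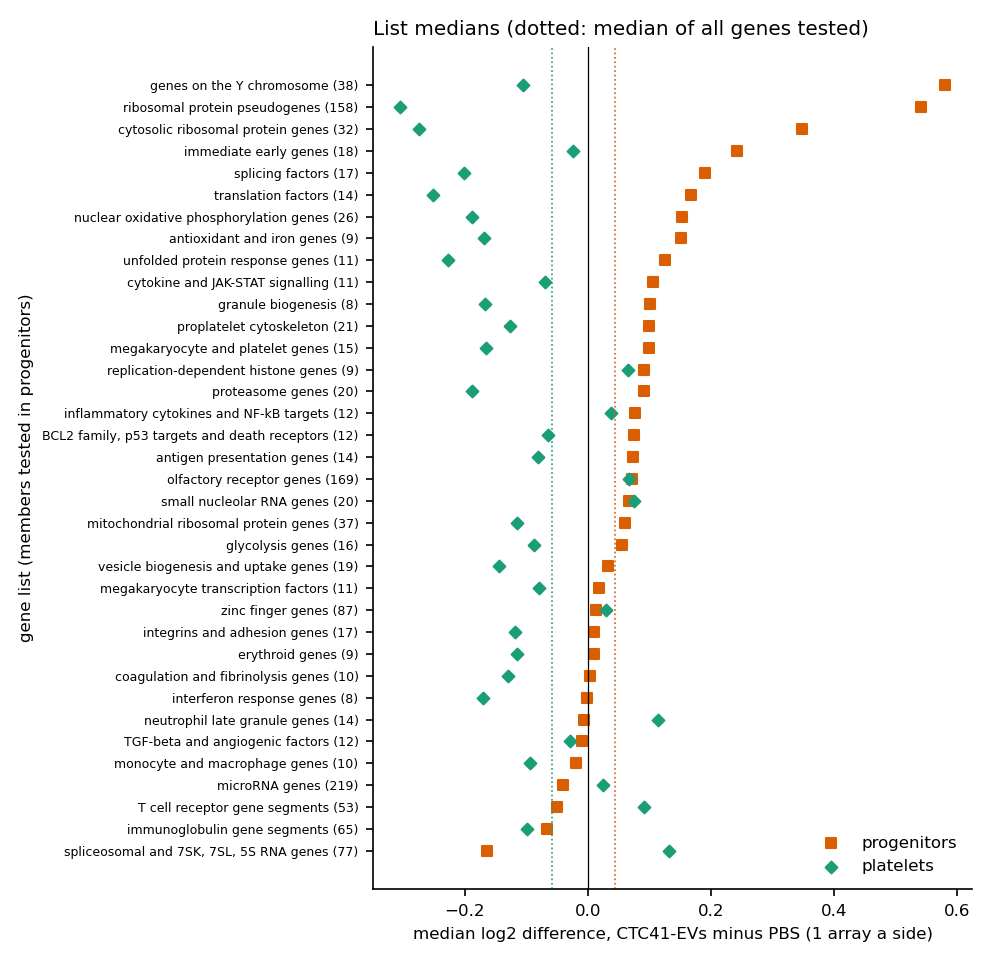
The horizontal axis gives the median log2 difference between CTC41-EVs and PBS of each gene list with at least 8 members tested in both cell types, in progenitors (squares) and in platelets (diamonds), 1 array a side, with dotted lines at the median of all genes tested. Ribosomal protein genes lie at 0.35 in progenitors and -0.27 in platelets, while lists such as zinc finger genes lie near 0 in both.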

How the data were processed

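Total RNA was measured on Clariom D Mouse arrays, which carry probes for coding and noncoding transcripts. The deposited values are log2 signals, 1 per probe and array. The submitters' processing notes name Affymetrix Expression Console 1.4.1.46 and the series text names MAS5.0, so the authors' scaling between arrays was unclear and the values were used as deposited. The labels name 3 ng of RNA in 1 place and 5 ng in another, and different extraction kits. The labels name no genome build.

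Of 72688 probes, 30604 named 1 gene symbol and were used, 2146 named several and 39938 none. Through the Entrez identifier 22818 matched RefSeq (GRCm38.p6), which updated 827 symbols. A gene took its brightest probe, which left 30142 genes, of which 355 had several probes. Genes entered at a mean of 5.07 over the 3 progenitor arrays, and 287 of the 10858 shared their values with another. A gene was called at 1.5-fold. Named genes were the 15 protein-coding and 6 other genes furthest each way and up to 4 members of each list. The comparison, its members and the 50 lists were chosen with earlier results of these data known, and 3 lists (ribosomal pseudogenes, Y genes, the Snrpn to Ube3a snoRNA genes), 2 alternatives, the start-site words and further genes named in the text were chosen after seeing the data. Array signals carry no read depth, and 1 array a group limits the precision. Counting was tested on simulated data, with Python 3.11.15, pandas 2.3.3 and numpy 2.4.6.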

Additional observations from a re-analysis of the deposited data

Results flagged for a closer look

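Cytosolic ribosomal protein genes had a median difference of 0.347 with CTC41-EVs in progenitors and of -0.274 in platelets, opposite signs under the same contrast. Their pseudogenes had medians of 0.540 and -0.305. The difference between the cell types was not tested, because each value rests on 1 array a side. Lists with at least 10 members tested and medians of at least 0.2 in size in both cell types were looked at for this.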

How the results depend on the processing

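The counts of genes at least 1.5-fold higher and lower with CTC41-EVs, 336 and 11 as deposited, were 198 and 46 after quantile normalization of the 6 arrays, 170 and 32 after that of the 3 progenitor arrays, and 181 and 26 after subtracting the running median of like signal. Without the ribosomal protein genes, their named pseudogenes, the Y genes and the Snrpn to Ube3a snoRNA genes, 189 were higher. Other pseudogenes, such as Gm15464, stayed in that count, so it is not free of genes that share sequence. Among protein-coding genes alone 59 were higher and 2 lower, and at 2-fold 12 and 1, each from its own construction. The lower count was 3 with arrays centred on olfactory receptor genes, 39 with the floor at the 50th percentile, 3 with it at the 90th, where the median of all genes was 0.12, and 131 with no floor. The cause of the shift under the scalings was not tested. Median scaling, the floor on the 2 arrays compared, the mean of probes and counting identical genes once kept both counts within 1.5 times. Of 50 named genes past 1.5-fold, 50 kept their sign and 38 stayed past 1.5-fold under the 5 scalings. No paired analysis was possible because each group has 1 array, and no array could be left out for the same reason.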
